A study of Arabidopsis thaliana with 22 samples.

Results

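Described here are 10 jasmonate genes of *Arabidopsis thaliana*, chosen by gene identifier from the 27416 genes of the count tables: *LOX2* (AT3G45140), *AOS* (AT5G42650) and *OPR3* (AT2G06050) of jasmonate synthesis, *JOX1* (AT3G11180), *JOX2* (AT5G05600), *JOX3* (AT3G55970) and *JOX4* (AT2G38240) of jasmonate turnover, the repressor gene *JAZ10* (AT5G13220), and the output genes *VSP1* (AT5G24780) and *VSP2* (AT5G24770). All 10 were found in every table. They were chosen with earlier results of these data known, and which comparison led to the choice is not recorded. Their levels, fold changes, calls and counts below a p threshold in all comparisons are therefore a description, with no p-value printed for any of them. Printed p-values are only those of the mutated genes and of 65 other jasmonate genes. The list of the 65 was also made with earlier results known.

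Transcript counts were available for whole 5-day-old seedlings of 5 genotypes, with 2 libraries per group. The T-DNA mutant *ahl22-1* carries a mutation in *AHL22*, which encodes an AT-hook protein of the nuclear matrix, and *frs7-1 frs12-1* carries mutations in *FRS7* and *FRS12*, which encode transcriptional repressors related to FAR1. The *ahl22 frs7 frs12* line combines the 3 mutations by crossing, and *hda15-1* is a T-DNA mutant of HDA15, an RPD3-type histone deacetylase. Each mutant genotype is thus 1 line of constitutive mutants in the Col-0 background, and Col-0 is the unmutated wild type. All groups grew under 16 h light and 8 h dark, and no hormone or wounding treatment was stated. The *ahl22*, *frs7 frs12* and *hda15* tables hold the same Col-0 libraries, called shared Col-0 below. The *ahl22 frs7 frs12* table holds 2 different Col-0 libraries, called other Col-0. Only their column names mark them as Col-0, and neither could be matched to a listed sample, so how they were grown and handled is taken from the labels of the group alone.

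The Col-0 pairs were not alike, so every mutant was compared with each of them. Library totals were 12537767 to 21400580 counts, and an *hda15* library was the deepest. In other Col-0 against shared Col-0, 16.5% of 19214 tested genes passed an adjusted p below 0.05 and an absolute log2 fold change above 1, the rule by which a gene is "called" in all that follows. The summed CPM (counts scaled to library size after TMM normalization of the 12 libraries) of 13 root marker genes was 38.3 to 57.4 in the *ahl22*, *frs7 frs12* and combined *ahl22 frs7 frs12* mutants, 137 to 161 in *hda15*, 198 to 207 in shared Col-0 and 42.1 to 66.5 in other Col-0. The labelled whole seedlings thus held root and shoot transcripts in every group, with summed levels of 10 shoot marker genes of 44954 to 72954 CPM. Transcript of *HDA15* in *hda15* had a log2 fold change of -3.96 against shared Col-0 (edgeR adjusted p = 9.63e-10, standard error 0.17). *AHL22* in *ahl22* had log2 fold changes of -4.18 against shared Col-0 and -1.62 against other Col-0, and *FRS12* had -2.95 and -3.18 in *frs7 frs12*. In *ahl22 frs7 frs12* against other Col-0, its own table's wild type, *FRS12* had -3.35 (edgeR adjusted p = 4.29e-08), whereas *AHL22* (-1.21, edgeR adjusted p = 0.126) and *FRS7* (-0.82) were not called. Directly against *frs7 frs12*, *AHL22* had -0.28 (edgeR adjusted p = 0.754) in *ahl22 frs7 frs12*, so its transcript did not set these lines apart. *FRS7* transcript was not called in *frs7 frs12* either (-0.49 and -0.66), and *AHL22* was also low in *frs7 frs12* (-3.47) and in other Col-0 (-2.55), both against shared Col-0. In bulk seedlings, fewer cells of a type and less RNA per cell cannot be told apart.

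Jasmonates are oxylipin hormones made from linolenic acid. In the plastid a 13-lipoxygenase such as LOX2 oxygenates the fatty acid, AOS (allene oxide synthase) turns the product into an unstable allene oxide, and allene oxide cyclases (AOC) close the ring to OPDA. OPR3 reduces OPDA in the peroxisome, beta-oxidation shortens it to jasmonic acid, and conjugation to isoleucine gives the active hormone. The hormone is perceived by COI1 together with JAZ proteins, whose breakdown frees MYC transcription factors. The JOX enzymes are 2-oxoglutarate-dependent oxygenases that hydroxylate jasmonic acid and so remove the precursor of the active hormone. *VSP1* and *VSP2* encode vegetative storage proteins of the acid phosphatase family and are widely used readouts of the MYC branch, and *JAZ10* encodes a repressor that is itself induced by jasmonate.

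The sequences upstream of 4 of these genes are shown because they stand at the head of the 2 groups that were highest in *hda15*, synthesis (*LOX2*, *AOS*) and turnover (*JOX2*, *JOX4*). Each is the 250 bases before the annotated start in TAIR10.1 (RefSeq), read 5′ to 3′ on the gene's strand, and capitals mark CACGTG (the G-box, bound by MYC factors) or its variant CACATG on either strand. CACGTG reads the same on both strands, and no matches overlapped.
LOX2 (chr3:16524995-16525244, plus strand): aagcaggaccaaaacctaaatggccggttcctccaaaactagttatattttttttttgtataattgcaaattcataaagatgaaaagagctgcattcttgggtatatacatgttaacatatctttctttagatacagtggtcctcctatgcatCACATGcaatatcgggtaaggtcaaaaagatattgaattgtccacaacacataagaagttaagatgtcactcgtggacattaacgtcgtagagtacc
AOS (chr5:17099596-17099845, minus strand): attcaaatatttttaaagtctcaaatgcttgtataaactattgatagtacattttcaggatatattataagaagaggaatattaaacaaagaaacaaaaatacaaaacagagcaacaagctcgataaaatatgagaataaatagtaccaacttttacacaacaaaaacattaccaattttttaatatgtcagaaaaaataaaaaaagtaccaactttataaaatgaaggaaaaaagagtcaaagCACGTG
JOX2 (chr5:1671820-1672069, plus strand): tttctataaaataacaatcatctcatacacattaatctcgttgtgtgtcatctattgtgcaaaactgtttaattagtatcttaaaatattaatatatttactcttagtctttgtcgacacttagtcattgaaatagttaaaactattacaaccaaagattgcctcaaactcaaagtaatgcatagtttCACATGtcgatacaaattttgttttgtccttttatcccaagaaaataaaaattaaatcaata
JOX4 (chr2:16014992-16015241, minus strand): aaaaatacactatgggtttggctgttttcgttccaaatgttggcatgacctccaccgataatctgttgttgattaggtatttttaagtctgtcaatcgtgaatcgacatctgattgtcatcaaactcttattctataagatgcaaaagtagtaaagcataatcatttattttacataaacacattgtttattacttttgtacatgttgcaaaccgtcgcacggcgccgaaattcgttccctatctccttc
*JOX2* (chromosome 5, plus strand) held CACATG 62 bases and *LOX2* (chromosome 3, plus strand) 97 bases before the start, *AOS* (chromosome 5, minus strand) held CACGTG 6 bases before it, and the *JOX4* window (chromosome 2, minus strand) held neither. Of all 10 genes, 2 held CACGTG (*AOS* and *JOX1*) and 3 held CACATG (*JOX2*, *LOX2* and *JAZ10*). Among 27443 annotated genes, 6.49% of such windows held CACGTG and 11.1% held CACATG. These are matches of letters and not measured binding sites.

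*AOS* was the most abundant of the 10 genes per length of transcript in every group. On the RPKM scale (CPM divided by the exon length in kilobases), *AOS* had mean levels of 76.1 in *ahl22*, 101 in *frs7 frs12*, 115 in *ahl22 frs7 frs12*, 310.01 in *hda15*, 110 in shared Col-0 and 80.2 in other Col-0. *LOX2* and *OPR3* lay between 5.58 and 46.5 RPKM in the group means, *JOX2* between 1.55 and 34.6 RPKM, and *JOX3*, *JAZ10*, *VSP1* and *VSP2* between 0.300 and 6.54 RPKM. *JOX4* reached 21.8 RPKM in *hda15*, against 0 to 0.142 RPKM in the other groups. *JOX1* was hardly detected. Its highest count in a library was 7, it had 10 counts in *hda15* and 11 in the other 10 libraries together, and it passed the filter on low counts in no comparison. *JOX4* passed that filter in the comparisons of *hda15* with Col-0 and in the fit of all 12 libraries, each time through the *hda15* libraries, so 8 or 9 of the 10 genes were tested in any comparison.

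**Figure D1:**
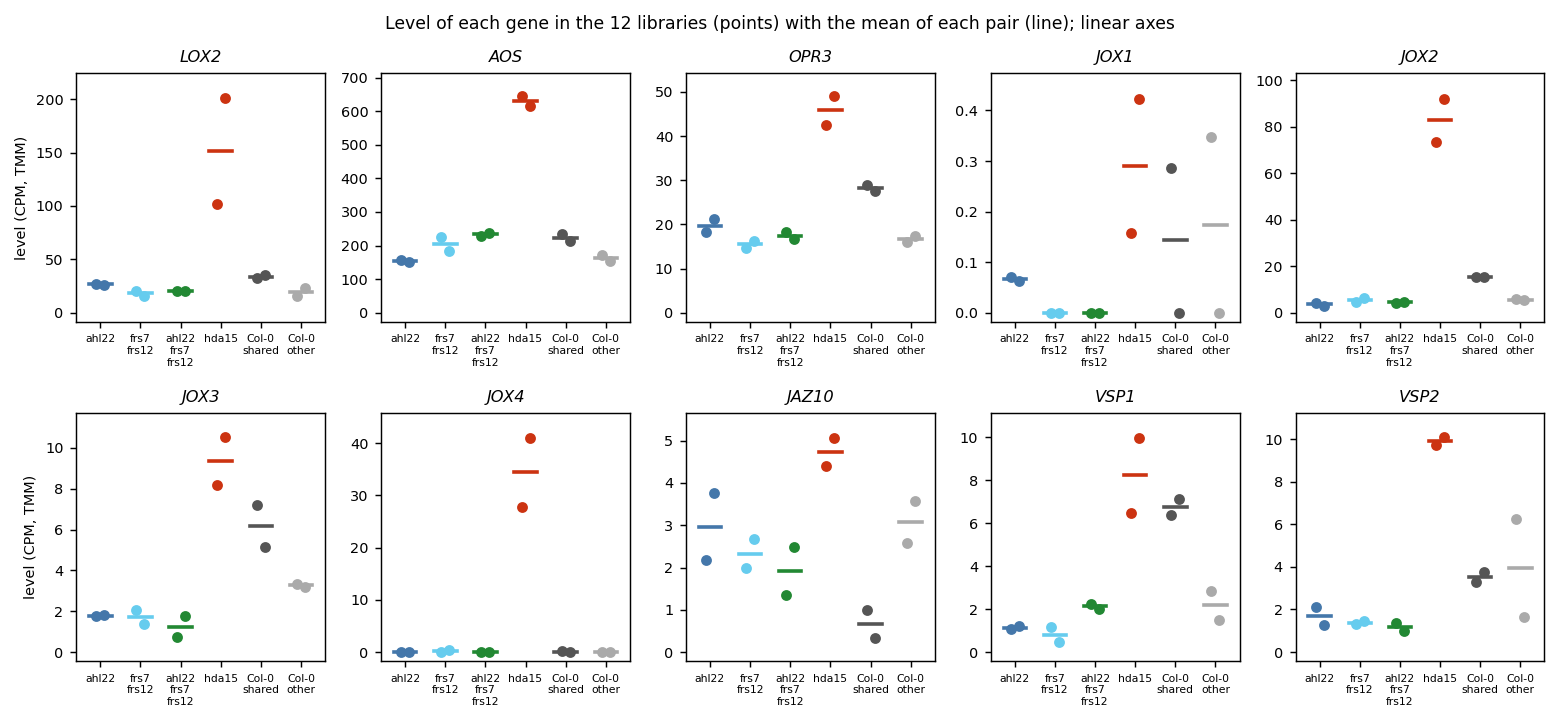
Level of the 10 genes in CPM (vertical axes, linear, a separate scale for each gene) in the 2 libraries of each group (points) with the mean of each pair (line). Both *hda15* points lie above all 10 other points for 8 of the 9 genes with a mean of at least 1 CPM, the exception being *VSP1*, and *JOX1* is near 0 in every group. *JOX4* reaches that mean only through *hda15*.

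In *hda15*, the synthesis genes, *JOX2* and *JOX4* were high in both libraries. Both *hda15* libraries lay above all 10 others in 8 of the 9 genes with a mean of at least 1 CPM, against 9.23% of 18287 genes at that level, and *VSP1* was the exception. *JOX4* reached that mean only through *hda15*, so its place among the 8 was set by the filter. Against the Col-0 libraries in the *hda15* table (shared Col-0), 6 of the 9 tested genes were called higher in *hda15* (*AOS*, *LOX2*, *JOX2*, *JOX4*, *JAZ10* and *VSP2*), where 4.05% of all tested genes were called higher and 3.65% lower. Against other Col-0, 8 of 9 were called higher, all but *JAZ10*, where 8.09% of all tested genes were called higher and 3.33% lower. Since the choice of the genes may rest on these contrasts, nothing is read from any of these counts.

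*LOX2* had 102 and 201 CPM in *hda15*, against 32.1 and 35.7 CPM in shared Col-0 and 15.4 and 23.1 CPM in other Col-0. The *hda15* replicates differed by more for this gene than for *AOS* or *OPR3*, yet the lower of them was above every Col-0 library. The log2 fold change was 2.16 (standard error 0.23) against shared Col-0 and 2.97 (standard error 0.28) against other Col-0.

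*AOS* had 644 and 616 CPM in *hda15*, against 234 and 212 CPM in shared Col-0 and 171 and 155 CPM in other Col-0. The groups were well apart, with log2 fold changes of 1.50 (standard error 0.13) and 1.95 (standard error 0.14). *OPR3*, the reductase gene, had 42.5 and 49.1 CPM in *hda15*, against 28.9 and 27.7 CPM in shared Col-0 and 15.9 and 17.3 CPM in other Col-0. Its libraries did not overlap either, but its log2 fold change of 0.70 (standard error 0.14) against shared Col-0 was below the size needed for a call, and it was 1.46 (standard error 0.16) against other Col-0.

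The *JOX* genes differed among themselves. *JOX2* had 73.4 and 92.2 CPM in *hda15*, against 15.3 and 15.4 CPM in shared Col-0 and 5.70 and 5.47 CPM in other Col-0, with log2 fold changes of 2.43 (standard error 0.16) and 3.89 (standard error 0.18). *JOX4* had 532 and 678 counts (27.8 and 41.0 CPM) in *hda15*, against 2 and 0 counts in shared Col-0 and 0 in both other Col-0 libraries. It was thus close to absent outside *hda15*, where only 10 counts were found in 10 libraries, 8 of them in *frs7 frs12* replicate 2. The ratio of *hda15* to shared Col-0 was 445 (exact 95% interval 123 to 3678, which covers counting error only), and against other Col-0, at a floor of 3 counts over the pair, *JOX4* was at least 336-fold higher. *JOX3* moved less, with 8.16 and 10.5 CPM in *hda15*, against 7.23 and 5.14 CPM in shared Col-0 and 3.34 and 3.19 CPM in other Col-0. Its log2 fold changes were 0.59 (standard error 0.24) and 1.51 (standard error 0.26).

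Summed over the *JOX* genes, the level per length was 52.2 and 69.6 RPKM in *hda15*, against 9.97 and 8.81 RPKM in shared Col-0 and 4.10 and 3.76 RPKM in other Col-0. *JOX2* held the largest share in every library. In *hda15*, *JOX4* held 33.9% and 37.4% and *JOX3* 7.20% and 6.96% of the sum, against 0.912% and 0% for *JOX4* and 33.4% and 26.9% for *JOX3* in shared Col-0. In other Col-0 *JOX3* held 37.5% and 39.1%. The family in *hda15* thus held *JOX4* transcript, of which Col-0 had hardly any.

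**Figure D2:**
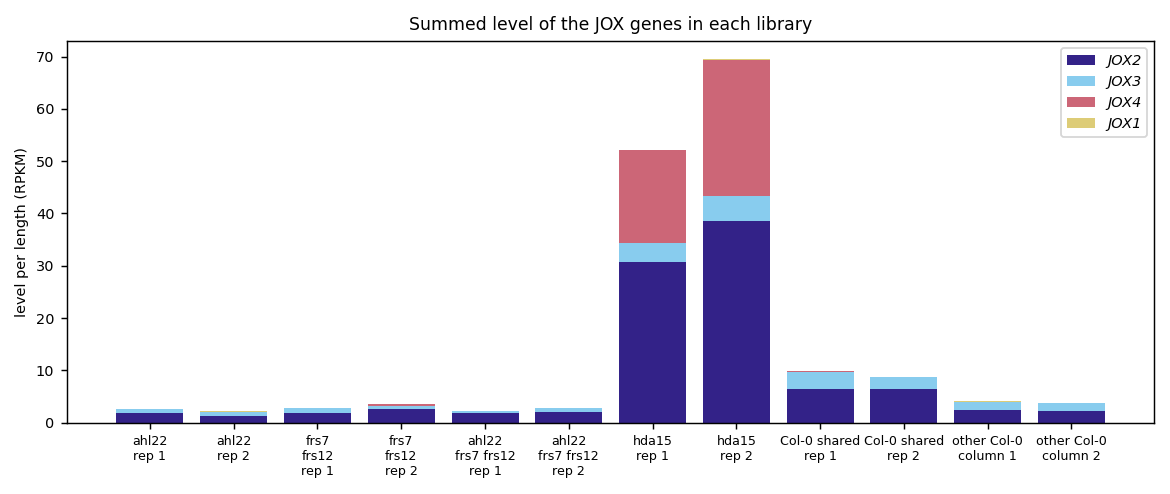
Level per length (RPKM, vertical axis) of *JOX2*, *JOX3*, *JOX4* and *JOX1*, stacked, in each of the 12 libraries (horizontal axis). The *hda15* bars reach 52.2 and 69.6 RPKM and hold *JOX4*, whereas the other 10 bars lie between 2.15 and 9.97 RPKM.

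The output genes and *JAZ10* depended on which Col-0 pair was used. *VSP1* had 6.49 and 9.97 CPM in *hda15*, against 6.37 and 7.10 CPM in shared Col-0 and 2.85 and 1.50 CPM in other Col-0. It overlapped with shared Col-0 (log2 fold change 0.29, standard error 0.24) and not with other Col-0 (1.92, standard error 0.34). *VSP2* had 9.73 and 10.1 CPM in *hda15*, against 3.29 and 3.75 CPM in shared Col-0 and 6.26 and 1.63 CPM in other Col-0. The log2 fold changes of *VSP2* were 1.50 (standard error 0.23) and 1.34 (standard error 0.41), and the second was no longer called in DESeq2 or without either *hda15* library or the second other Col-0 library (lowest log2 fold change 0.65, without that Col-0 library). *VSP1* and *VSP2* are neighbours on chromosome 5 (8507590 to 8509201 and 8500468 to 8502224) with transcripts that are 86.8% identical over 1284 nt, so reads in identical stretches could be shared between them.

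*JAZ10* had 4.40 and 5.07 CPM in *hda15*, against 1.00 and 0.326 CPM in shared Col-0 and 2.57 and 3.58 CPM in other Col-0. The shared pair was the lowest group for *JAZ10*, with 14 and 4 counts. The log2 fold change was 2.78 (standard error 0.42) against shared Col-0, 3.82 without shared Col-0 replicate 1, and 0.61 (standard error 0.30) against other Col-0. A gene on the opposite strand, AT5G02045, overlaps *JAZ10*, and whether the counting used strand is not given in the sources used here.

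Several other gene lists also differed between these libraries. Against shared Col-0, 3 of 9 clock genes were called higher and 5 lower in *hda15*, and 1 was called higher and 1 lower against other Col-0. Of 9 tested root markers, 6 were called higher in *hda15* against other Col-0. Against shared Col-0, 0 of 11 tested root markers were called, with 2 log2 fold changes above 0 and 9 below. Summed touch and wounding genes (9 genes) were 151 to 169 CPM in *hda15*, against 214 to 230 CPM in shared Col-0 and 195 to 197 CPM in other Col-0. Against each Col-0 pair, 4 of the 8 tested had a log2 fold change above 0 and 4 below, and 1 was called higher. The parts of the clock, root, touch and wounding genes in the results were not tested. In 8 of the 9 genes with a mean of at least 1 CPM *hda15* replicate 2 was above replicate 1, against 49.7% of all such genes.

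**Figure D3:**
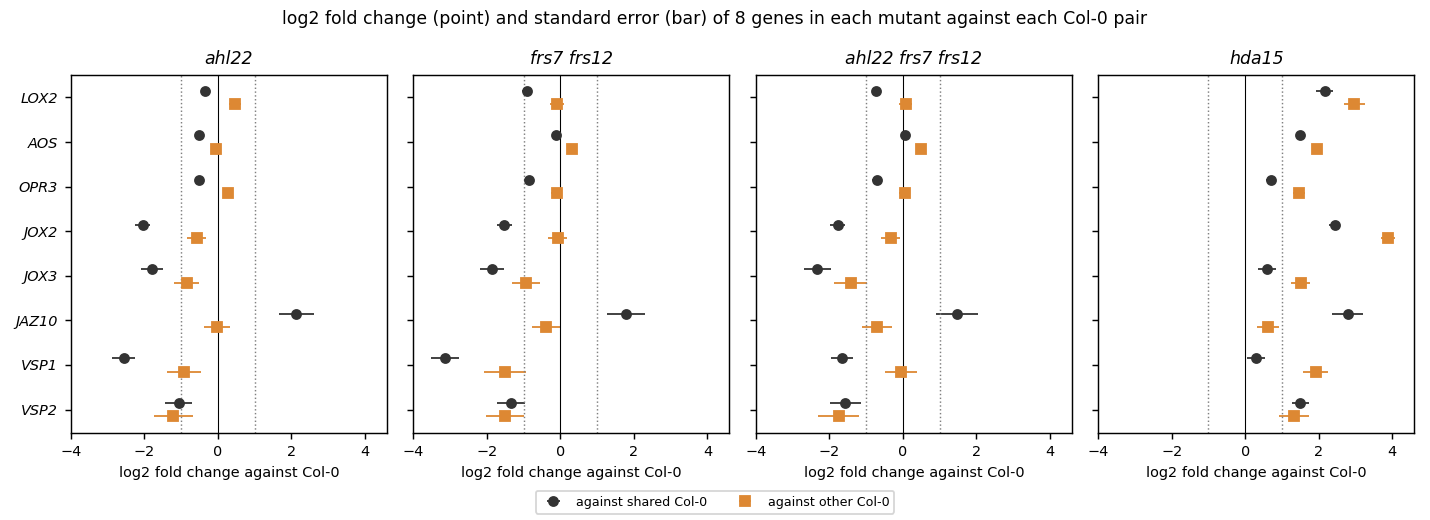
log2 fold change (horizontal axis) with its standard error (bar) of 8 genes in each mutant against shared Col-0 (circles) and other Col-0 (squares), with dotted lines at -1 and 1. In *hda15* all 16 values are above 0, whereas in the other mutants *JOX2*, *JOX3* and *VSP1* are lower against shared Col-0 and nearer to 0 against other Col-0.

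In the *ahl22*, *frs7 frs12* and combined *ahl22 frs7 frs12* mutants, the genes were lower or higher mainly against shared Col-0. *JOX2* had 4.36 and 3.07 CPM in *ahl22*, 4.42 and 6.13 CPM in *frs7 frs12* and 4.35 and 4.65 CPM in *ahl22 frs7 frs12*, against 15.3 and 15.4 CPM in shared Col-0 and 5.70 and 5.47 CPM in other Col-0. The 3 mutants lay far below shared Col-0 and close to other Col-0. The log2 fold changes of *JOX2* against shared Col-0 were -2.05 (standard error 0.20) in *ahl22*, -1.52 (standard error 0.19) in *frs7 frs12* and -1.77 (standard error 0.20) in *ahl22 frs7 frs12*. Against other Col-0 they were -0.57 (standard error 0.26), -0.07 (standard error 0.26) and -0.33 (standard error 0.26) in the same order.

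*VSP1* had 1.06 and 1.19 CPM in *ahl22*, 1.14 and 0.446 CPM in *frs7 frs12* and 2.25 and 1.99 CPM in *ahl22 frs7 frs12*, against 6.37 and 7.10 CPM in shared Col-0 and 2.85 and 1.50 CPM in other Col-0. The same split between the Col-0 pairs was seen. Against shared Col-0 the log2 fold changes of *VSP1* were -2.56 (standard error 0.32), -3.14 (standard error 0.39) and -1.66 (standard error 0.31), and against other Col-0 -0.92 (standard error 0.46), -1.50 (standard error 0.57) and -0.05 (standard error 0.44).

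*JOX3* had 1.76 and 1.82 CPM in *ahl22*, 2.06 and 1.39 CPM in *frs7 frs12* and 0.749 and 1.74 CPM in *ahl22 frs7 frs12*, against 7.23 and 5.14 CPM in shared Col-0 and 3.34 and 3.19 CPM in other Col-0. All 6 mutant libraries were below all 4 Col-0 libraries for this gene, with 10 to 29 counts in each mutant library. The share of all genes with such a split was not computed, so nothing is read from it. Against other Col-0 its log2 fold changes were -0.85 (standard error 0.34) in *ahl22*, -0.94 (standard error 0.39) in *frs7 frs12* and -1.42 (standard error 0.45) in *ahl22 frs7 frs12*, and no call was made.

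*VSP2* had 2.11 and 1.25 CPM in *ahl22*, 1.30 and 1.45 CPM in *frs7 frs12* and 1.35 and 0.996 CPM in *ahl22 frs7 frs12*, against 3.29 and 3.75 CPM in shared Col-0 and 6.26 and 1.63 CPM in other Col-0. The other pair was split for *VSP2*, and a single library set the comparison. In *ahl22 frs7 frs12* the log2 fold change against it was -1.75 (standard error 0.56), but -2.42 without the second and -0.47 without the first other Col-0 library. Against shared Col-0 it was -1.07 (standard error 0.36) in *ahl22*, -1.34 (standard error 0.38) in *frs7 frs12* and -1.57 (standard error 0.42) in *ahl22 frs7 frs12*, and the call was lost without shared Col-0 replicate 2 in *ahl22* and *frs7 frs12*. In *ahl22* it was also lost without *ahl22* replicate 2, in DESeq2 and in 1 fit of all 12 libraries.

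*JAZ10* went the other way against shared Col-0 only. It had 2.18 and 3.76 CPM in *ahl22*, 1.98 and 2.68 CPM in *frs7 frs12* and 1.35 and 2.49 CPM in *ahl22 frs7 frs12*, against 1.00 and 0.326 CPM in shared Col-0 and 2.57 and 3.58 CPM in other Col-0. Its log2 fold changes against shared Col-0 were 2.13 (standard error 0.48), 1.78 (standard error 0.51) and 1.48 (standard error 0.56), and without shared Col-0 replicate 2 the calls in *frs7 frs12* (1.23) and *ahl22 frs7 frs12* (0.93) were lost. DESeq2 called neither of these, and that in *ahl22 frs7 frs12* was also lost without its replicate 2. Against other Col-0 the log2 fold changes of *JAZ10* were -0.03 (standard error 0.35) in *ahl22* and -0.39 (standard error 0.37) in *frs7 frs12*. In *ahl22 frs7 frs12* the value was -0.71 (standard error 0.41), and no call was made against that pair.

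*LOX2* had 26.7 and 26.2 CPM in *ahl22*, 20.8 and 15.5 CPM in *frs7 frs12* and 20.5 and 20.6 CPM in *ahl22 frs7 frs12*. *AOS* had 157 and 152 CPM in *ahl22*, 225 and 185 CPM in *frs7 frs12* and 229.7 and 237 CPM in *ahl22 frs7 frs12*. *OPR3* had 18.3 and 21.2 CPM in *ahl22*, 14.7 and 16.2 CPM in *frs7 frs12* and 18.2 and 16.7 CPM in *ahl22 frs7 frs12*. The synthesis genes were called in none of these 3 mutants against either Col-0 pair, with log2 fold changes between -0.91 (*LOX2* in *frs7 frs12* against shared Col-0, -1.12 and called without *frs7 frs12* replicate 1) and 0.50 (*AOS* in *ahl22 frs7 frs12* against other Col-0).

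Against shared Col-0, *JAZ10* was called higher and *JOX2*, *JOX3*, *VSP1* and *VSP2* lower, of 8 tested genes, in *ahl22* (7.07% of all tested genes called higher and 11.2% lower), in *frs7 frs12* (7.18% higher and 11.7% lower) and in *ahl22 frs7 frs12* (8.21% higher and 12.2% lower). These comparisons share their Col-0 libraries. In other Col-0 against shared Col-0, *JAZ10* was called higher (log2 fold change 2.18, standard error 0.51) and *JOX2* (-1.45, standard error 0.19) and *VSP1* (-1.62, standard error 0.32) lower, where 6.61% of all tested genes were called higher and 9.92% lower. Root markers moved with these values. Of the 9 root markers tested against shared Col-0, 9 were called lower in *ahl22*, 8 in *frs7 frs12*, 9 in *ahl22 frs7 frs12* and 8 in other Col-0, and their part in the results was not tested.

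Against other Col-0, edgeR called 0 of 8 genes in *ahl22 frs7 frs12* (1.45% of all tested genes called in either direction), in *ahl22* (0.758%) and in *frs7 frs12* (1.73%). Below an unadjusted p of 0.05 in edgeR were 4 of the 8 genes in *ahl22* (20.1% of all tested genes), 4 in *frs7 frs12* (19.2%) and 3 in the combined *ahl22 frs7 frs12* mutant (19.7%). DESeq2 also called 0. Its counts below an unadjusted p of 0.05 were 1 of 9 genes in *ahl22*, 2 of 10 in *frs7 frs12* and 3 of 9 in *ahl22 frs7 frs12*. The share of all genes below that p in DESeq2 was not computed, so nothing is read from these counts. Among the mutants, 0 of 9 genes were called in *ahl22 frs7 frs12* against *ahl22* (2.13% of all tested genes called), in *ahl22 frs7 frs12* against *frs7 frs12* (0.766%) and in *frs7 frs12* against *ahl22* (1.28%), and DESeq2 also called 0. Below an unadjusted p of 0.05 in edgeR were 2 of the 9 genes in the first of these comparisons (25.7% of all tested genes), 2 in the second (17.0%) and 5 in the third (16.9%). In DESeq2 they were 1, 1 and 3 of 10 genes in the same order, again without a share of all genes, so nothing is read from them. The largest difference among genes with counts in both groups was in *VSP1*, 1.48 (standard error 0.46) in *ahl22 frs7 frs12* against *frs7 frs12*.

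Among the other 65 jasmonate genes, some were also higher in *hda15*. This list was written from general knowledge but with earlier results of these data known, so its counts and p-values are no independent test. Against shared Col-0, 12 of 54 tested genes rose and 2 fell, and against other Col-0 13 rose and none fell (adjusted p below 0.05 in edgeR's test; 7.70% and 11.4% of all tested genes were called in either direction). The median log2 fold change over the tested genes of the list was 0.24 and 0.45, against 0.00 and -0.02 over all genes tested.

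By class, 3 of 18 tested synthesis genes rose against shared Col-0, the lipoxygenase gene *LOX3* and the cyclase genes *AOC1* and *AOC3*, and the same 3 rose against other Col-0. *AOC3* had 14.3 and 19.3 CPM in *hda15*, against 3.08 and 3.67 CPM in shared Col-0 and 1.46 and 1.30 CPM in other Col-0. Its log2 fold changes were 2.32 (standard error 0.23, edgeR adjusted p = 4.93e-06) and 3.60 (standard error 0.28, edgeR adjusted p = 2.06e-06). Other synthesis genes, such as *JAR1*, which conjugates jasmonic acid to isoleucine, were not called.

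Among 7 tested turnover genes, *CYP94B3* and *CYP94C1*, which oxidise the isoleucine conjugate, rose against both pairs, and the sulfotransferase gene *ST2A* rose against other Col-0. *CYP94C1* had 7.64 and 8.10 CPM in *hda15*, against 1.29 and 1.14 CPM in shared Col-0 and 1.67 and 1.37 CPM in other Col-0. Its log2 fold changes were 2.68 (standard error 0.29, edgeR adjusted p = 1.11e-05) and 2.37 (standard error 0.29, edgeR adjusted p = 9.94e-05).

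Of 19 tested signalling genes, the repressor gene *JAZ1* and the transporter gene *JAT1* rose against both pairs. *JAZ4*, a repressor gene, had 1.41 and 2.30 CPM in *hda15*, against 4.58 and 4.98 CPM in shared Col-0 and 0.139 and 0.326 CPM in other Col-0. It lay between the Col-0 pairs, so its log2 fold change was -1.37 (standard error 0.32, edgeR adjusted p = 0.00595) against shared Col-0 and 2.93 (standard error 0.63) against other Col-0. In the second comparison *JAZ4* passed the filter on low counts only through the *hda15* libraries, so no p-value is printed there. *JAZ6* rose against shared Col-0 and was not called against other Col-0. The receptor gene *COI1* and the factor gene *MYC2* were not called.

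Of 10 tested output genes, 4 rose against each pair, *TAT3* and *CORI3* in both. *CORI3*, a cystine lyase gene, had 21.3 and 30.3 CPM in *hda15*, against 3.08 and 3.10 CPM in shared Col-0 and 1.11 and 0.652 CPM in other Col-0, with log2 fold changes of 3.06 (standard error 0.23, edgeR adjusted p = 2.89e-07) and 4.87 (standard error 0.31, edgeR adjusted p = 3.54e-07). *TAT3*, a tyrosine aminotransferase gene, had low levels, with 1.36 and 2.30 CPM in *hda15*, against 0.143 and 0.0816 CPM in shared Col-0 and 0.139 and 0 CPM in other Col-0. Its 64 counts over the *hda15* libraries stood against 3 in shared Col-0, a 15.7-fold ratio (exact 95% interval 5.13 to 78.1). Against 2 in other Col-0 the ratio was 26.7-fold (exact 95% interval 7.09 to 225), both intervals for counting error only. *TAT3* passed the filter on low counts only through the *hda15* libraries, so it could hardly come out lower and no p-value is printed for it. *NAC055* fell against shared Col-0, by 1.44 on the log2 scale (standard error 0.26, edgeR adjusted p = 0.000848), and *HCHIB*, a basic chitinase gene, and *PR4* rose against other Col-0. *HCHIB* had 27.0 and 25.4 CPM in *hda15*, against 28.4 and 30.9 CPM in shared Col-0 and 3.69 and 1.82 CPM in other Col-0.

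**Figure D4:**
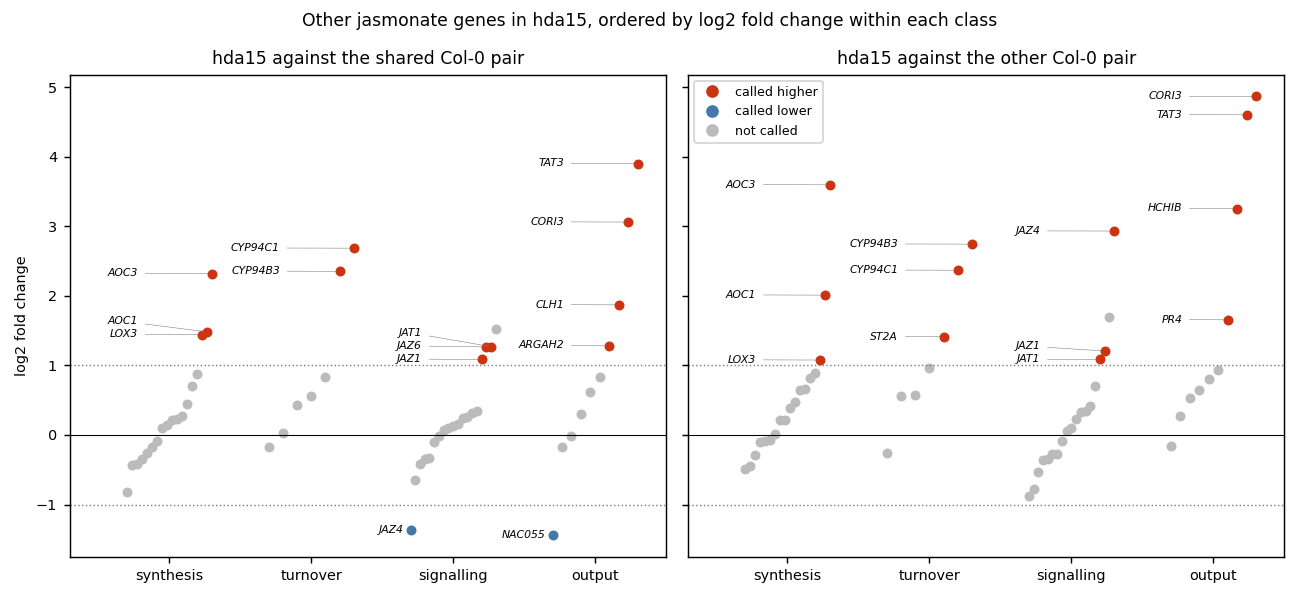
log2 fold change (vertical axis) of the 54 tested other jasmonate genes in *hda15* against shared Col-0 (left) and other Col-0 (right), by class and in order of size within a class, with called genes in colour and named. *AOC1*, *AOC3*, *LOX3*, *CYP94B3*, *CYP94C1*, *JAZ1*, *JAT1*, *CORI3* and *TAT3* are called higher in both panels, and *JAZ4* changes sign between them.

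In the *frs7 frs12* and *ahl22 frs7 frs12* seedlings, the cyclase gene *AOC2* fell against both Col-0 pairs. *AOC2* had 8.92 and 7.30 CPM in *frs7 frs12* and 6.44 and 5.31 CPM in *ahl22 frs7 frs12*, against 51.6 and 51.3 CPM in *ahl22*, 36.1 and 34.3 CPM in shared Col-0 and 33.6 and 35.7 CPM in other Col-0. All 4 libraries with the *frs7* and *frs12* mutations were below all others. The share of all genes with such a split was not computed. The *ahl22 frs7 frs12* line descends from *frs7 frs12* by crossing, so the mutations and other differences of that parent line cannot be told apart. The log2 fold changes of *AOC2* in *frs7 frs12* were -2.13 (standard error 0.15, edgeR adjusted p = 1.66e-11) against shared Col-0 and -2.10 (standard error 0.15, edgeR adjusted p = 4.93e-07) against other Col-0. In *ahl22 frs7 frs12* they were -2.57 against each pair (standard error 0.16 against other Col-0, edgeR adjusted p = 3.41e-07). Directly against *ahl22*, *AOC2* fell in *frs7 frs12* by 2.68 on the log2 scale (standard error 0.14, edgeR adjusted p = 2.58e-11) and in *ahl22 frs7 frs12* by 3.12 (standard error 0.15, edgeR adjusted p = 2.01e-11).

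*AOC1*, which lies beside *AOC2* on chromosome 3 (9403779 to 9405338 and 9406669 to 9408071), had 19.6 and 24.8 CPM in *frs7 frs12* and 26.7 and 24.7 CPM in *ahl22 frs7 frs12*, against 15.9 and 16.8 CPM in shared Col-0 and 9.60 and 13.0 CPM in other Col-0. It was called higher in *ahl22 frs7 frs12* against other Col-0 (log2 fold change 1.17, standard error 0.16, edgeR adjusted p = 0.000602), and without the first other Col-0 library the value was 0.98 and not called. The *AOC1* and *AOC2* transcripts are 87.7% identical over 910 nt, so reads could be shared between them. Of the summed level per length of the 4 *AOC* genes, *AOC2* held 8.59% to 13.7% in these 4 libraries, against 39.7% to 52.6% in the other 8. That sum was 47.5 to 51.2 RPKM in the 4 libraries, against 58.1 to 127.5 RPKM in the others.

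**Figure D5:**
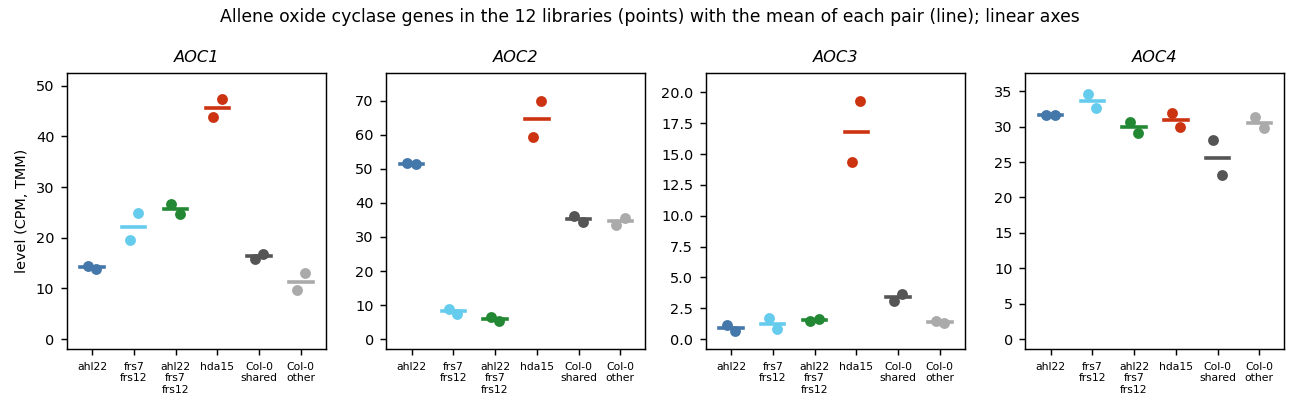
Level of the 4 *AOC* genes in CPM (vertical axes, linear, a separate scale for each gene) in the 2 libraries of each group (points) with the mean of each pair (line). *AOC2* lies at 5.31 to 8.92 CPM in *frs7 frs12* and *ahl22 frs7 frs12* and at 33.6 to 70.0 CPM elsewhere, and *AOC3* is highest in *hda15*.

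Against other Col-0, 3 of the 50 tested other jasmonate genes (6.00%) were called in each of these mutants, where the share of all tested genes was 0.758% in *ahl22*, 1.73% in *frs7 frs12* and 1.45% in the combined *ahl22 frs7 frs12* mutant. In *ahl22 frs7 frs12*, 1 of 50 tested genes rose and 2 fell, the second being *CYP94B1* (log2 fold change -1.09, standard error 0.27, edgeR adjusted p = 0.0254), which was lost without either mutant library or the first Col-0 library. In *ahl22*, *NAC019* (2.25, standard error 0.52, edgeR adjusted p = 0.0205) and *CORI3* (1.82, standard error 0.48, edgeR adjusted p = 0.0416) rose and *JAZ9* fell by 1.12 (standard error 0.15, edgeR adjusted p = 0.000556). The calls of *NAC019* and *CORI3* were lost in DESeq2 and without either *ahl22* library, and that of *JAZ9* without *ahl22* replicate 1. In *frs7 frs12*, *ST2A* (1.29, standard error 0.12, edgeR adjusted p = 1.59e-05) and *CORI3* (1.70, standard error 0.46, edgeR adjusted p = 0.0392) rose beside the fall of *AOC2*, and the *CORI3* call was lost in DESeq2 and without either *frs7 frs12* library or the second Col-0 library.

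Against shared Col-0, 5 of 52 tested genes rose and 10 fell in *ahl22* (9.62% and 19.2%, against 7.07% and 11.2% of all tested genes). In *frs7 frs12* 2 rose and 9 fell (3.85% and 17.3%, against 7.18% and 11.7% of all). In *ahl22 frs7 frs12* 4 rose and 10 fell (7.69% and 19.2%, against 8.21% and 12.2% of all), and in other Col-0 2 rose and 8 fell (3.85% and 15.4%, against 6.61% and 9.92% of all). The share that rose was below that of all genes in each of these but *ahl22*. The counts that rose were small and the comparisons share a Col-0 pair, so nothing is read from that share. *JAZ4* and *HCHIB* had the largest falls in each of these. *HCHIB* had log2 fold changes of -4.39 (standard error 0.20) in *ahl22*, -4.06 (standard error 0.19) in *frs7 frs12*, -3.01 (standard error 0.18) in *ahl22 frs7 frs12* and -3.42 (standard error 0.23) in other Col-0, all against shared Col-0. *JAZ6* rose in each of them, with log2 fold changes between 1.38 and 1.55.

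The genes whose pattern was most like that of the 9 members with a mean of at least 1 CPM were taken from 18278 genes by Pearson's r over the 12 libraries between log2(CPM + 1) and the mean standardised level of the members, as a description. The first 8 were *HSP90.1* (0.992), *RNS1* (0.988), *CCoAOMT1* (0.981), *FLA13* (0.979), *HSP101* (0.978), *AOC3* (0.976), *RGP2* (0.975) and *Hop3* (0.974). They include chaperone genes (*HSP90.1*, *HSP101*, *Hop3*), a ribonuclease gene and *AOC3*, the only jasmonate gene of the 65 among the 8. *HSP90.1* had mean levels of 37.2 CPM in *hda15*, against 12.8 CPM in shared Col-0 and 7.97 CPM in other Col-0, and *RNS1* 34.6 CPM in *hda15*, against 1.73 CPM in shared Col-0. With a pseudocount of 0.1, 6 of the 8 remained.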

How the data were processed

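RNA-seq counts of 12 libraries were analysed. Of the 22 listed samples, 10 are RNA-seq samples, each matched to 1 library, and the other 2 libraries (other Col-0) match no listed sample. The 12 listed samples of other assays were not used here. The authors deposited raw counts per gene in 4 tables (16 columns, 12 distinct libraries), made with HISAT2 on TAIR10 from paired-end reads and with Subread, and not normalized. The paper's reporting summary gives a version of HISAT2, whereas the version of Subread and the strand setting are not given in the sources used here. The methods and the labels differ on growth medium, temperature and library kit. The replicates are named biological, but whether seedlings were grown separately is not stated, so p-values measure the spread between these libraries.

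The members and the gene lists were chosen with earlier results of these data known. Lists of 65 other jasmonate genes and of root, shoot, clock and touch genes were written from general knowledge. Groups followed the labels, and the other Col-0 pair was placed by its column names as Col-0. Each mutant was set against each Col-0 pair in edgeR 4.0.16 under R 4.3.3 (quasi-likelihood F-test, TMM, filterByExpr by group, Benjamini-Hochberg adjustment over all genes tested), and mutants were compared with each other in 1 fit of all 12 libraries. A gene was called at an adjusted p below 0.05 and an absolute log2 fold change above 1. Standard errors were taken from the log2 fold change and its F statistic. With 2 residual degrees of freedom per pairwise fit, the spread is estimated mainly from all genes together. CPM and RPKM were computed from the deposited counts, with exon lengths of the TAIR10.1 annotation, and transcripts were compared with blastn 2.17.0. Both tools were tested on simulated data.

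Genes were named by this rule: all 10 members, the mutated genes, in each comparison with Col-0 up to 3 other jasmonate genes with the largest rise and 3 with the largest fall among those called, and the 8 genes of most similar pattern. Other genes of the 65 that were named (*AOC1*, *JAR1*, *COI1*, *MYC2* and those listed only as called) were added after their values were seen. Alternatives were DESeq2 1.42.0, RLE normalization, no filter, at least 10 counts in every library, 1 fit of all 12 libraries, the replicate number as a block, and leaving out each library. Counts over small numbers limit the precision: a member with fewer than 100 counts in a library, as *JAZ10* had in all, is measured less well than *AOS*. Intervals cover counting error only.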

Additional observations from a re-analysis of the deposited data

How the results depend on the processing

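No called value changed sign under any alternative that was run. The members called in *hda15* were 7 to 8 against other Col-0 under all of them and 6 against shared Col-0 under all but the minimum of 10 counts in every library (4; *JOX4* and *JAZ10* were not tested). For *frs7 frs12* against shared Col-0, the 5 members called became 3 with at least 10 counts in every library, and 3 to 6 when 1 library was left out (3 without shared Col-0 replicate 2, 6 without *frs7 frs12* replicate 1). Against other Col-0, where 0 members were called, *ahl22 frs7 frs12* had 2 without a filter on low counts and 2 in 1 fit of all 12 libraries, *ahl22* had 1 without a filter, and *frs7 frs12* had 1 without a filter and 2 in 1 fit of all 12 libraries. Leaving out 1 library gave 0 to 1 in each of these 3, the 1 being *VSP2* without the second other Col-0 library. Without a filter, 2 members were called in *ahl22 frs7 frs12* against *frs7 frs12* and 1 in *frs7 frs12* against *ahl22*, in place of 0. Of the other jasmonate genes, the 3 called in *ahl22* against other Col-0 became 1 with DESeq2 and 0 to 4 with 1 library left out (0 without *ahl22* replicate 1), the 3 in *ahl22 frs7 frs12* against other Col-0 became 2 to 5 (5 without the second other Col-0 library), and the 1 in *frs7 frs12* against *ahl22* became 1 to 3 (3 without *ahl22* replicate 2). In *ahl22 frs7 frs12* against *frs7 frs12*, 1 was called with DESeq2 and 1 without a filter, in place of 0. The cause was not tested. With the replicate number as a block, the comparison of *ahl22 frs7 frs12* with *frs7 frs12* gave 1 member and 1 other jasmonate gene in place of 0, and the other counts stayed within 1.5 times; the numbers share only a label, and the deviations of same-numbered libraries correlated across genes at -0.02 to 0.23 over 10 pairs of groups. No paired analysis was possible with other Col-0 because its columns carry no replicate number. Of the log2 fold changes of members under alternatives, 882 moved by less than their spread and 66 by more. Low counts limit *JOX1*, *JAZ10*, *VSP1*, *VSP2* and *TAT3* most.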
